A study of Mus musculus with 5 samples.

Results

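The arms of 3 X-linked mouse hairpins, miR-201, miR-463 and miR-470, were followed in small RNA of the testis. They were chosen by name, as all 6 mature arms (5p and 3p) that the deposited sheet lists for these hairpins, out of 717 miRNAs (mmu-miR-201-5p, mmu-miR-201-3p, mmu-miR-463-5p, mmu-miR-463-3p, mmu-miR-470-5p and mmu-miR-470-3p). The measured groups were Mtdh-/- testes (3 libraries), from mice deficient in exon 3 of Mtdh, and wild-type testes (2 libraries), all from C57BL/6 mice at a postnatal age of 6 months. Mtdh encodes metadherin, and the study asked which small RNAs differ in the testis without it. The sources used here do not give whether a library came from 1 animal or from a pool, so p-values measure only the spread between these libraries, which may be technical. In whole testis, fewer cells of a type and less RNA per cell cannot be told apart. No other tissue was measured, so enrichment in testis was not examined.

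A miRNA hairpin is cut by Drosha and Dicer into a short duplex, and an Argonaute protein usually keeps one arm and discards the other. The seed, bases 2 to 8 from the 5′ end, is the stretch that chiefly pairs with target mRNAs, so a shift of the 5′ end by a single base can change the targets, while a shift of the 3′ end does not change the seed. These hairpins belong to X-linked miRNAs between Slitrk2 and Fmr1 that are known from male germ cells and that have been described as transcribed in spermatocytes while most protein-coding genes of the X chromosome are silenced. miR-470 was reported in mouse embryonic stem cells to act on the coding sequence of Nanog, a pluripotency factor.

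The hairpins are shown because each one gave more counts from its 5p arm than from its 3p arm in every library. They are RefSeq sequences on the minus strand of GRCm38.p6, 5′ to 3′, with the mature arms in capitals (5p before 3p). Mir201 lies at chrX:67988096-67988161, Mir463 at chrX:66799223-66799297 and Mir470 at chrX:66813951-66814025. In GENCODE M21 none of these hairpins overlaps an annotated gene other than the miRNA itself, so they are intergenic there.
Mir201: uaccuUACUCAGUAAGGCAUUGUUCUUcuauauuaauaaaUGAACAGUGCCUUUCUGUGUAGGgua
Mir463: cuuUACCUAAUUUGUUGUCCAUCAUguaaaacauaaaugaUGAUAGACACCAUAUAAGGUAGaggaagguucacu
Mir470: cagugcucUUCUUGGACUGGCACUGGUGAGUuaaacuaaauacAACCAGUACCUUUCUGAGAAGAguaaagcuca
Mir463 and Mir470 lie in 1 run of miRNA hairpins, where, counted along the chromosome from the start of Mir470, Mir463 starts at -14.7 kb and Mir871, the nearest neighbour, at -3.52 kb. Mir201 is separate from that run. It begins 1174 kb beyond the start of Mir470, has Mir547 212 bases away, and lies 690.4 kb before Fmr1.

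The 6 mature arms are shown to compare their seeds, which are in capitals. All 6 were matched by name in RefSeq, and each was the same as the mature sequence of the deposited sheet.
miR-201-5p: uACUCAGUaaggcauuguucuu
miR-201-3p: uGAACAGUgccuuucuguguagg
miR-463-5p: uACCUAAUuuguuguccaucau
miR-463-3p: uGAUAGACaccauauaagguag
miR-470-5p: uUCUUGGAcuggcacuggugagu
miR-470-3p: aACCAGUAccuuucugagaaga
No seed was shared between members, and 0 other miRNAs of the sheet carried any of the 6 seeds. The arms most alike in sequence were miR-201-3p and miR-470-3p, which share a run of 8 bases (CCUUUCUG) and match at 16 positions in their best ungapped alignment.

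Library totals of miRNA counts were 720259, 118475 and 258433 in Mtdh-/- 1, 2 and 3, and 198640 and 474839 in wild type 1 and 2. Levels are given as CPM, counts scaled to a fixed total of miRNA counts per library, and all these RNAs are of similar length, so CPM was not divided by length. The libraries did not divide by genotype on the first principal component of 246 miRNAs (42.3% of the variance), where Mtdh-/- 3 and wild type 1 stood at -10.6 and -12.8 and Mtdh-/- 1, Mtdh-/- 2 and wild type 2 at 8.51, 9.39 and 5.55. Germ-cell miRNAs were present, with all 6 arms of miR-34b, miR-34c and miR-449a counted.

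miR-470-5p was by far the most abundant member and held 92.5% of all member counts. It stood at 11543, 10770.2 and 9294 CPM in Mtdh-/- 1, 2 and 3, against 6942 and 40405 CPM in wild type 1 and 2. All Mtdh-/- values lay between the wild-type values, and wild type 2 stood apart from the other 4 libraries. It ranked 12, 20 and 21 among the miRNAs of the Mtdh-/- libraries, and 22 and 5 among those of the wild-type libraries. The highest wild-type value was 5.82 times the lowest, whereas the Mtdh-/- libraries differed among themselves by at most 1.24 times. The mean was 10536 ± 1142 CPM in Mtdh-/- (SD, n = 3) and 23674 ± 23662 CPM in wild type (SD, n = 2). The log2 fold change was -0.82 ± 0.70 (SE), which did not pass the test (edgeR quasi-likelihood test, Benjamini-Hochberg adjusted p = 0.867). Its direction rested on wild type 2: leaving that library out gave 0.52, and leaving out wild type 1 gave -1.46.

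miR-201-5p was counted in every library at a far lower level. It had 559.5, 1165 and 402 CPM in Mtdh-/- 1, 2 and 3, against 362 and 1676 CPM in wild type 1 and 2. Wild type 1 was again the lowest library and wild type 2 the highest, with Mtdh-/- 2 well above the other Mtdh-/- libraries. The mean was 709 ± 403 CPM in Mtdh-/- (SD, n = 3) and 1019 ± 929 CPM in wild type (SD, n = 2), and edgeR put the log2 fold change at -0.29 ± 0.72 (SE, adjusted p = 0.949). Leaving out wild type 2 turned it to 0.80, and leaving out wild type 1 gave -0.86.

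miR-463-5p stood at 457, 329 and 348 CPM in Mtdh-/- 1, 2 and 3, against 237 and 885 CPM in wild type 1 and 2. The Mtdh-/- libraries lay between the wild-type libraries, as for the other 5p arms. They differed among themselves by at most 1.39 times, against 2.89 times for miR-201-5p. The mean was 378 ± 68.8 CPM in Mtdh-/- (SD, n = 3) and 561 ± 458 CPM in wild type (SD, n = 2), and edgeR put the log2 fold change at -0.23 ± 0.68 (SE, adjusted p = 0.951). It turned to 0.63 when wild type 2 was left out, and was -0.71 when wild type 1 was. Leaving out Mtdh-/- 1 gave -0.71 and leaving out Mtdh-/- 2 gave -0.07.

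The 3p arms were scarce and did not follow the 5p arms. miR-463-3p had 12.5, 33.8 and 42.6 CPM in Mtdh-/- 1, 2 and 3, against 55.4 and 18.95 CPM in wild type 1 and 2, from 4 to 11 counts a library. Wild type 1, the lowest library of miR-463-5p, was the highest here, but at so few counts the 95% Wilson intervals were wide (13.1 to 86.8 CPM in Mtdh-/- 2, 30.9 to 99.2 CPM in wild type 1). miR-470-3p had 12.5, 50.6 and 255 CPM in Mtdh-/- 1, 2 and 3, against 257 and 14.7 CPM in wild type 1 and 2. Mtdh-/- 3 and wild type 1, the pair that the principal component placed together, were the high libraries of miR-470-3p, and miR-470-5p had its lowest values in them. The log2 fold change was -0.37 ± 1.09 (SE) for miR-463-3p and -0.53 ± 1.47 (SE) for miR-470-3p, each with an edgeR adjusted p of 0.951. It was 0.95 for miR-463-3p and 3.12 for miR-470-3p without wild type 1. For miR-470-3p it was also -2.65 without Mtdh-/- 3, 0.0050 without Mtdh-/- 1, -0.20 without Mtdh-/- 2 and -1.52 without wild type 2, and for miR-463-3p -1.13 without wild type 2 and -0.98 without Mtdh-/- 3.

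miR-201-3p was not detected in any library. The sheet holds no count of 1, so a 0 may stand for single reads that were not listed. For scale, 3 counts would be 4.17, 25.3 and 11.6 CPM in Mtdh-/- 1, 2 and 3, and 15.1 and 6.32 CPM in wild type 1 and 2. These levels and all intervals cover counting error only.

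**Figure D1:**
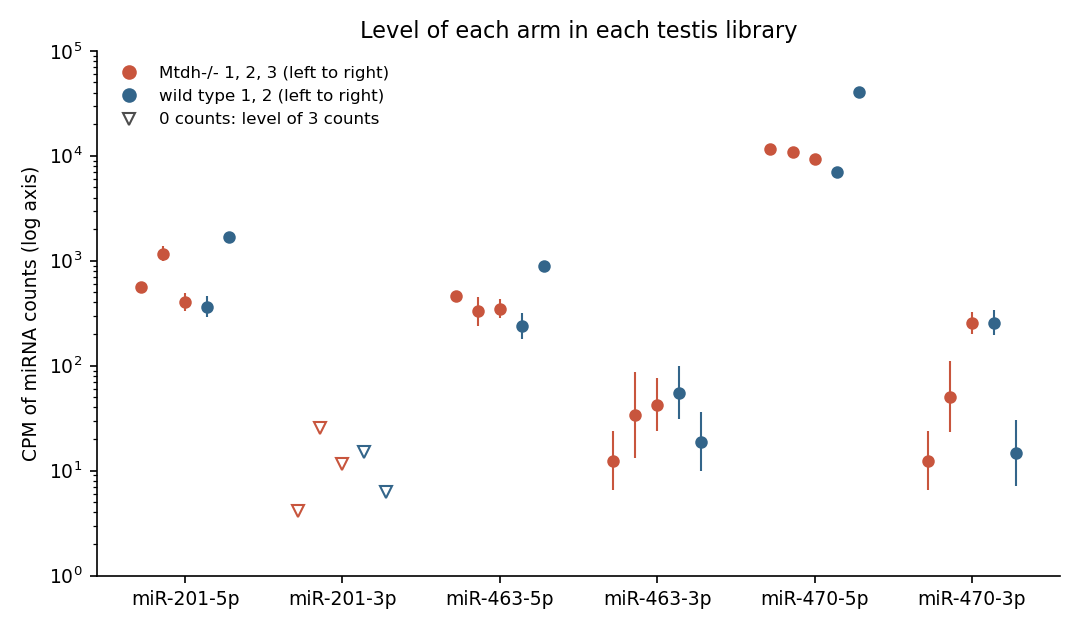
CPM of miRNA counts (log axis) of the 6 arms, 1 point per library with its 95% Wilson interval, Mtdh-/- libraries left of wild-type libraries; open triangles mark 0 counts and are drawn at the level of 3 counts. For the 5p arms wild type 2 is the highest point, and for miR-470-3p Mtdh-/- 3 and wild type 1 are the high points at 255 and 257 CPM.

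Together the members held 1.26%, 1.23% and 1.03% of miRNA counts in Mtdh-/- 1, 2 and 3, against 0.785% and 4.30% in wild type 1 and 2. The mean share was 1.18% ± 0.123 in Mtdh-/- (SD, n = 3) and 2.54% ± 2.49 in wild type (SD, n = 2), a difference of -1.37 percentage points (two-sided exact permutation test, p = 0.4, where the smallest possible p is 0.1).

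Of the 6 members, 5 passed the minimum count of the test and none passed its threshold; over all miRNAs the background was 0 of 246 (0.0%). DESeq2 called 0 of 512 and limma on the authors' normalized values 0 of 246, with 7 (edgeR), 19 (DESeq2) and 3 (limma) miRNAs below 0.05 before adjustment. For none of the 5 tested members did the Mtdh-/- libraries stand wholly above (background 4.88%) or wholly below (9.35%) the wild-type libraries. All Mtdh-/- values lay between the wild-type values for the 3 members of the 5p arm (background 9.76%). Wild type 1 was the lowest and wild type 2 the highest library for the same 3, a pattern found in 8.54% of the 246 tested miRNAs and in 1 of 22 tested arms of neighbouring X-linked hairpins.

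In the authors' deposited table for each Mtdh-/- library against the mean of both wild-type libraries, with 10 added to each value and the most abundant sequence compared, miR-470-5p was listed as lower each time. The ratio in the authors' deposited table was 0.468, 0.385 and 0.362 for Mtdh-/- 1, 2 and 3. The mean behind these ratios joins unlike libraries, with miR-470-5p at 6942 CPM in wild type 1 and 40405 CPM in wild type 2 (all isoforms). By that CPM every Mtdh-/- library stood above wild type 1. For miR-470-3p the authors' deposited table gave 0.180 for Mtdh-/- 1 and likewise for Mtdh-/- 2, but 2.95 for Mtdh-/- 3, where it was listed as higher; the sequence compared had 0 counts in Mtdh-/- 1, Mtdh-/- 2 and wild type 2. These lists share the wild-type libraries, and the arms of miR-201 and miR-463 were in none of them.

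The 5p arm exceeded the 3p arm in every library for each hairpin, and the margin varied widely between libraries. For miR-470 the 5p count was 924, 213 and 36.4 times the 3p count in Mtdh-/- 1, 2 and 3, against 27.04 and 2741 times in wild type 1 and 2. Mtdh-/- 3 and wild type 1 had the smallest margins and nearly the same one, while wild type 2 had the largest, so the spread lay within each genotype. In shares, the 5p arm of miR-470 held 99.9% (95% Wilson interval 99.8 to 99.9), 99.5% (99.0 to 99.8) and 97.3% (96.6 to 97.9) of the hairpin's counts in Mtdh-/- 1, 2 and 3, against 96.4% (95.3 to 97.3) and 99.96% (99.92 to 99.98) in wild type 1 and 2. The log2 ratio averaged 7.52 ± 2.30 in Mtdh-/- (SD, n = 3) and 8.03 ± 4.65 in wild type (SD, n = 2), a difference of -0.51 ± 2.42 (SE, limma over hairpins, adjusted p = 0.987). Leaving out wild type 1 gave -3.80, leaving out wild type 2 gave 2.78 and leaving out Mtdh-/- 3 gave 0.66.

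For miR-463 the 5p count was 36.6, 9.75 and 8.18 times the 3p count in Mtdh-/- 1, 2 and 3, against 4.27 and 46.7 times in wild type 1 and 2. The order of libraries was the same as for miR-470 (wild type 2, Mtdh-/- 1, Mtdh-/- 2, Mtdh-/- 3, wild type 1, from the largest margin down). It rested on 3p counts of 4 to 11 a library. The 95% Wilson intervals of the 5p share overlapped between libraries adjacent in this order, so their order is uncertain. For example, they were 78.4 to 96.3% in Mtdh-/- 2 and 81.5 to 93.8% in Mtdh-/- 3. The log2 ratio averaged 3.74 ± 1.19 in Mtdh-/- (SD, n = 3) and 3.76 ± 2.42 in wild type (SD, n = 2), a difference of -0.02 ± 1.44 (SE, limma adjusted p = 0.992). Leaving out wild type 2 gave 1.70 and leaving out wild type 1 gave -1.73. For miR-201, with its 3p arm at 0 and set at 3 counts per library, the 5p count was at least 134, 46.0 and 34.7 times the 3p count in Mtdh-/- 1, 2 and 3, and at least 24.0 and 265 times in wild type 1 and 2. These bounds rise with the depth of the library and with the level of miR-201-5p, so their order says nothing of the arms.

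**Figure D2:**
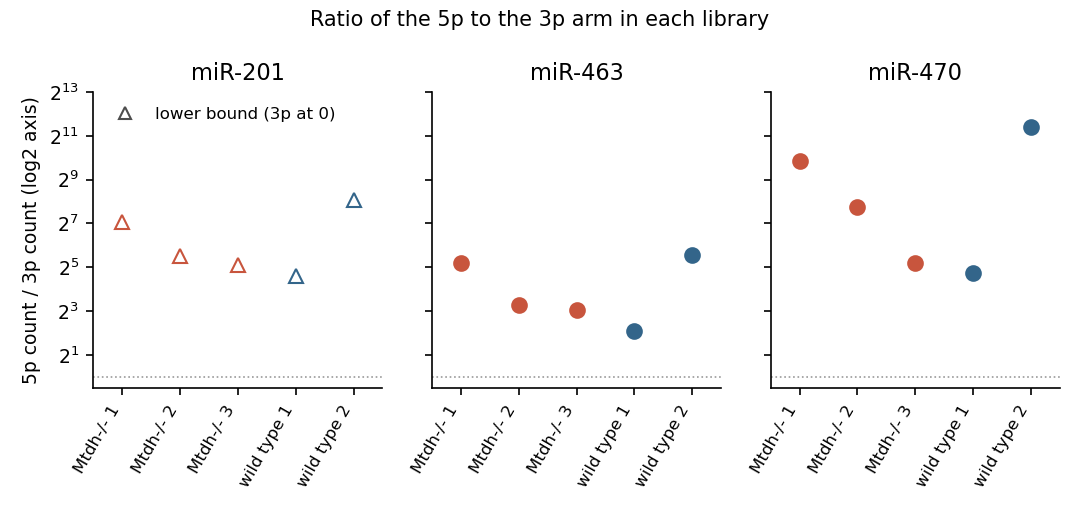
Ratio of the 5p count to the 3p count (log2 axis) in each library, Mtdh-/- libraries left of wild-type libraries; filled points are ratios of counts and open triangles are lower bounds with the 3p arm set at 3 counts. The ratio of miR-470 spans 27.04 (wild type 1) to 2741 (wild type 2), and all points lie above 1.

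Across all hairpins with each arm counted in at least 3 libraries, none of 73 passed the test of the arm ratio between genotypes (limma, 0.0% called, none below 0.05 before adjustment, and 0 by exact permutation tests, which cannot go below 0.1). The genotypes overlapped in arm ratio for miR-463 and for miR-470, where 11% of the 73 hairpins did not overlap. The log2 ratio of miR-470 ranged over 6.58 between libraries, rank 10 of the 73 hairpins from the widest, against a median range of 3.44 over all of them, and that of miR-463 ranged over 3.42. Both hairpins had their 2 lowest ratios in Mtdh-/- 3 and wild type 1. Of the 73 hairpins 17 (23.3%) had that same pair lowest and 14 (19.2%) had it highest.

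The nearest neighbour of miR-470, miR-871, had the same pair of libraries lowest in its ratio, at far higher 3p counts. miR-871-3p had 4615, 3857 and 27702 CPM in Mtdh-/- 1, 2 and 3, against 26787 and 2453 CPM in wild type 1 and 2, and miR-871-5p had 3912, 10331 and 3711 CPM in Mtdh-/- 1, 2 and 3, against 2724 and 6377 CPM in wild type 1 and 2. Mtdh-/- 3 and wild type 1 were thus high for the 3p arm. They were also the lowest for the 5p arm, but there Mtdh-/- 3 was hardly below Mtdh-/- 1. Among 11 neighbouring X-linked hairpins with both arms measured, 4 had their 2 lowest 5p to 3p ratios in that pair of libraries (miR-743a, miR-743b, miR-871 and miR-881) and 1 had its 2 highest there (miR-465a). The neighbours also differed in which arm led, with the 5p arm higher in every library for 2 hairpins (miR-741 and miR-878), the 3p arm for 4 (miR-465a, miR-743b, miR-881 and miR-883a), and a mixture for the others.

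The counted sequences show which end of each RNA varied. They are printed here as the most abundant counted form of the members for which it differed from the annotated mature form, with bases 2 to 8 in capitals and U for T.
miR-201-5p, most abundant: uACUCAGUaaggcauuguu
miR-463-5p, most abundant: uACCUAAUuuguuguccaucaug
miR-470-3p, most abundant: aAACCAGUaccuuucugagaag
For miR-201-5p the leading form had 19 bases, 3 fewer at the 3′ end than the 22 of the mature form, and for miR-463-5p it had 23, with 1 more at the 3′ end, so both kept the annotated 5′ end and seed. For miR-470-3p the leading form began 1 base upstream of the mature form and ended 1 base short of its end, which moves the seed from ACCAGUA to AACCAGU. Its first base was not that of the hairpin (C1A, the hairpin's base first, position counted from the 5′ end of the counted sequence), so that form does not match Mir470 over its whole length. For miR-470-5p and miR-463-3p the leading form was the mature form itself, as for 216 of 512 counted miRNAs (42.2%).

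The leading form of miR-470-5p made up 69.5%, 63.7% and 68.1% of its counts in Mtdh-/- 1, 2 and 3, against 70.1% and 74.2% in wild type 1 and 2. Every Mtdh-/- library lay below both wild-type libraries, where the share of the leading form did not overlap between genotypes in 16.7% of 144 miRNAs with at least 20 counts in every library. The 95% Wilson intervals of Mtdh-/- 1 (68.5 to 70.5) and wild type 1 (67.7 to 72.5) overlapped. The mean was 67.1% ± 3.03 in Mtdh-/- (SD, n = 3) and 72.1% ± 2.85 in wild type (SD, n = 2), a difference of -5.02 percentage points (two-sided exact permutation test, p = 0.2, or 0.6 after Benjamini-Hochberg adjustment over 6 tests, where the smallest possible raw p is 0.1).

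miR-201-5p had no form that held a majority. Its short leading form made up 35.5%, 20.3% and 44.2% of counts in Mtdh-/- 1, 2 and 3, against 34.7% and 35.8% in wild type 1 and 2. The exact mature form made up 24.1%, 39.9% and 25.0% in Mtdh-/- 1, 2 and 3, against 30.6% and 26.4% in wild type 1 and 2. Mtdh-/- 2 was the library in which the mature form (55 counts) outnumbered the short form (28 counts). In the other 4 libraries the short form outnumbered the mature form, while other single forms were not counted apart. The Wilson interval of the short form in Mtdh-/- 2 (14.4 to 27.8) lay below that in Mtdh-/- 1 (31.0 to 40.3) and wild type 2 (32.5 to 39.2), and overlapped that in wild type 1 (24.8 to 46.2). The means differed by -1.93 points for the short form and by 1.17 points for the mature form (exact permutation tests, p = 0.9 and p = 1, both adjusted to 1). For the short form the difference turned to 4.59 without Mtdh-/- 2, and was -7.38 without Mtdh-/- 3 and -3.0 without Mtdh-/- 1.

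miR-463-5p was seldom counted as its annotated sequence. The form with 1 more base made up 55.6%, 76.9% and 83.3% of counts in Mtdh-/- 1, 2 and 3, against 72.3% and 63.8% in wild type 1 and 2, and the exact mature form 3.34%, 5.13% and 0% in Mtdh-/- 1, 2 and 3 (0 of 90 counts in Mtdh-/- 3, where 3 counts would be 3.33%), against 6.38% and 4.76% in wild type 1 and 2. The genotypes overlapped for both forms, the exact form through Mtdh-/- 2; over all miRNAs 14.6% did not overlap for the exact form. The difference was 3.88 points for the longer form and -2.75 points for the mature form (exact permutation tests, p = 0.8 and p = 0.3, adjusted to 1 and 0.6). For the longer form it turned to -1.80 without Mtdh-/- 3 and -0.38 without wild type 2, while leaving out Mtdh-/- 1 gave 12.1, leaving out wild type 1 gave 8.15 and leaving out Mtdh-/- 2 gave 1.40. Across the 144 miRNAs the exact mature form held a median of 39.5% of counts, and a mean under 6%, as for miR-463-5p, was found for 20 of them.

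The scarce arms allow no comparison of shares between genotypes, so counts are given. Of miR-470-3p, the shifted form accounted for 42 of 66 counts in Mtdh-/- 3 and 19 of 51 in wild type 1, and for 0 counts in each of the other libraries, while the exact mature form had 5 of 9 counts in Mtdh-/- 1, 11 in wild type 1 and 0 elsewhere. The shifted form was thus counted only in the libraries with a high miR-470-3p level, and other forms made up the rest of the counts in each. Only 1 leading form is named per miRNA, and Mtdh-/- 3 and wild type 1 held 66 and 51 of all 139 counts. The match is therefore partly built in. Absence from the other libraries is not shown. The upper Wilson limits of the shifted share were 29.9%, 39.0% and 35.4% in Mtdh-/- 1, Mtdh-/- 2 and wild type 2. These overlapped the interval of wild type 1 (25.3 to 51.0) and lay below that of Mtdh-/- 3 (51.6 to 74.2). Of miR-463-3p, the mature form had 6, 2 and 7 counts in Mtdh-/- 1, 2 and 3, and 6 and 9 in wild type 1 and 2.

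**Figure D3:**
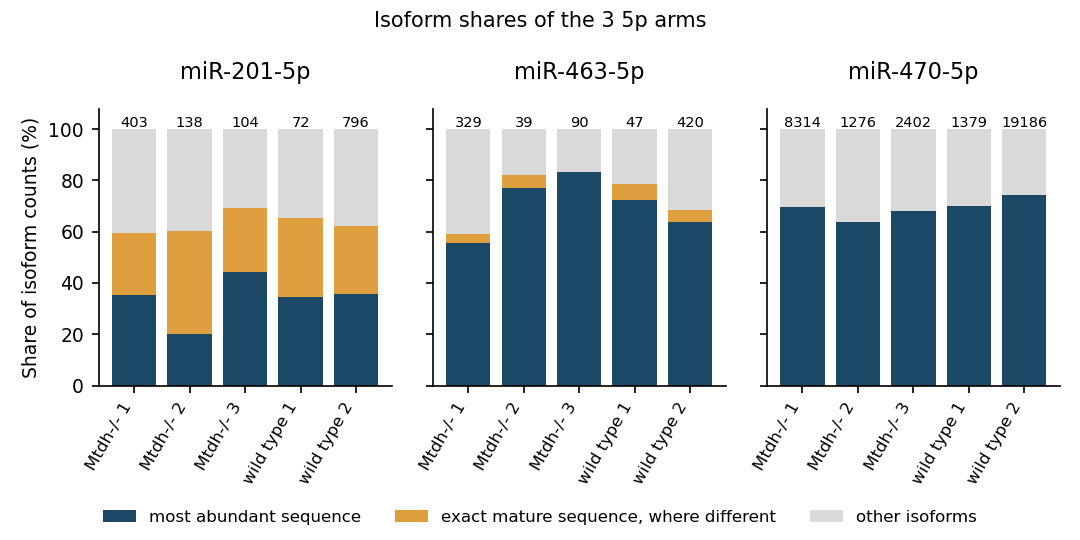
Share of isoform counts (%) for the 5p arms in each library, Mtdh-/- bars left of wild-type bars, divided into the most abundant sequence, the exact mature sequence where it is a different one, and other isoforms; the number above a bar is its count. The mature form exceeds the most abundant form of miR-201-5p in Mtdh-/- 2 alone (39.9% against 20.3%), and for miR-470-5p the leading form holds 63.7% to 74.2%.

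Among 22 tested arms of 16 neighbouring X-linked hairpins (28 arms listed, 27 counted), 0 passed the test. Of these arms 6 had positive and 16 negative log2 fold changes, beside 137 positive and 109 negative over all 246 miRNAs. The median was -0.44, beside 0.19 over all 246 miRNAs. All 5 tested members had negative values, but each turned positive with a wild-type library left out. The 3 most abundant neighbours were miR-871-3p (-0.41 ± 1.24, SE), miR-881-3p (-0.48 ± 0.63) and miR-465c-5p (-0.80 ± 0.55), with edgeR adjusted p of 0.951, 0.918 and 0.867. miR-470-5p had a higher mean over the 5 libraries than any of them (15791 CPM, against 13083 CPM for miR-871-3p), but this rested on wild type 2 (40405 CPM, against 2453 CPM for miR-871-3p). In Mtdh-/- 3 and wild type 1 miR-871-3p was the higher, at 27702 and 26787 CPM against 9294 and 6942 CPM for miR-470-5p. Summed, the neighbours held 33187 to 65940 CPM in Mtdh-/- libraries and 69733 to 74195 CPM in wild-type libraries. By library totals these sums did not overlap. The share of single miRNAs wholly lower in Mtdh-/- was 9.35%, which is no background for a sum of 27 counted arms. CPM leaves out the TMM scaling factors of the edgeR test, 1.05 for Mtdh-/- 3 and 1.25 for wild type 2. Divided by them, the sum of Mtdh-/- 3 would exceed that of wild type 2, so this gap depends on the scaling. Of the 22 tested arms, 3 had all Mtdh-/- values below the wild-type values (miR-465a-5p, miR-465c-5p and miR-471-3p), where 9.35% of all tested miRNAs did. For miR-883b-5p, which did not reach the minimum count of the test, only wild type 2 stood apart (1021 CPM). There wild type 1 (20.1 CPM, 4 counts) was hardly above Mtdh-/- 3 (19.3 CPM, 5 counts).

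**Figure D4:**
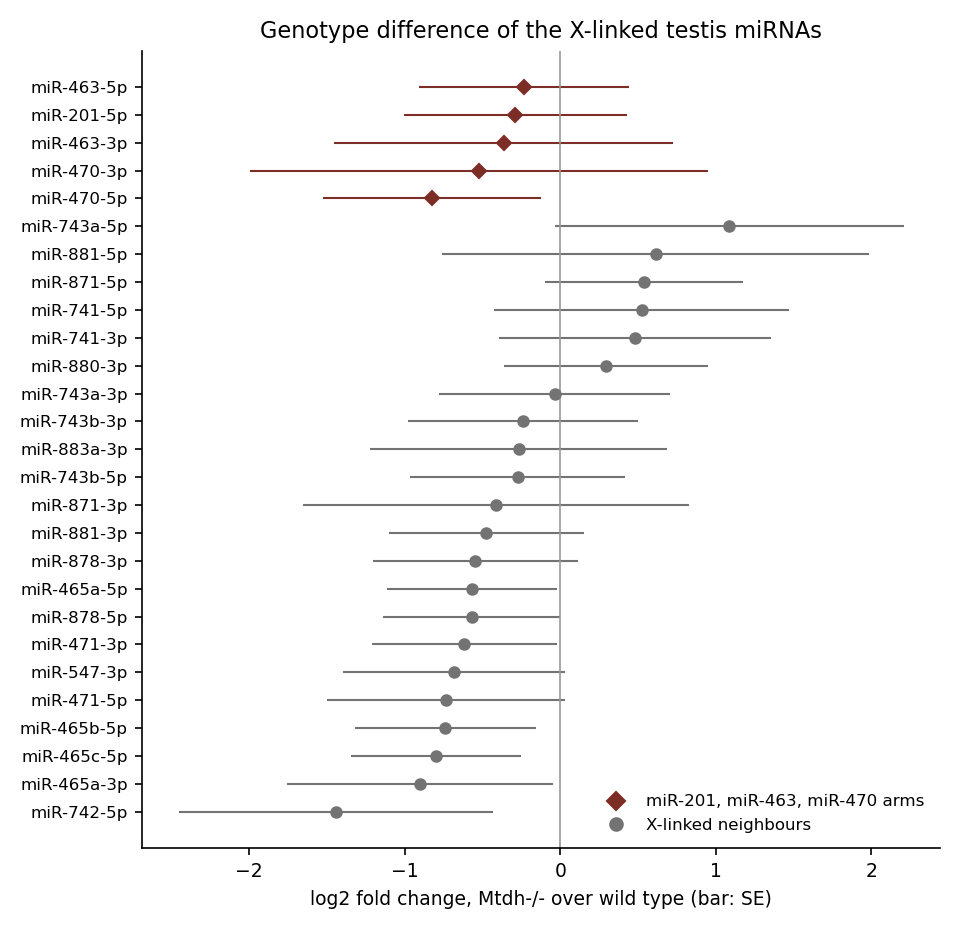
Log2 fold change of Mtdh-/- over wild type with its SE for the 5 tested members (diamonds, above) and 22 tested arms of neighbouring X-linked hairpins (circles). All diamonds lie below 0, from -0.82 to -0.23, but each of these values turned positive with a wild-type library left out. None of the miRNAs shown passed the edgeR test.

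Marker miRNAs of other cells were summed for comparison. Germ-cell markers (miR-34b, miR-34c and miR-449a) held 15607 to 47837 CPM in Mtdh-/- libraries and 50949.9 to 59500 CPM in wild-type libraries. By library totals these sums did not overlap (single miRNAs wholly lower in Mtdh-/-, 9.35%). The TMM scaling factors of the edgeR test were 0.725 for Mtdh-/- 1 and 1.25 for wild type 2. Divided by them, Mtdh-/- 1 would exceed wild type 2, so this gap depends on the scaling. Of 6 tested germ-cell arms, 1 had a positive and 5 a negative log2 fold change (median -0.21), and 0 passed the test. Over all 246 miRNAs 137 were positive and 109 negative. Smooth muscle and stromal markers (8 arms, all counted) held 86915 to 116337 CPM in Mtdh-/- and 72035 to 120493 CPM in wild type. Although these sums overlapped, all 5 tested arms of that list had positive log2 fold changes, as did 137 of all 246 tested miRNAs. The median of these 5 arms was 1.35, beside 0.19 over all 246 miRNAs, and 0 of the 5 passed the test. The arms of miR-202 of Sertoli cells (2 arms) held 1020.5 to 1899 CPM in Mtdh-/- and 1113 to 2856 CPM in wild type. Endothelial miR-126 (2 arms) held 1460.2 to 11160 CPM in Mtdh-/- and 3177 to 5612 CPM in wild type, blood markers (3 of 4 arms counted) 69.7 to 211 CPM in Mtdh-/- and 85.6 to 105 CPM in wild type, and epithelial markers (5 of 6 arms counted) 872 to 2004 CPM in Mtdh-/- and 1052 to 1670.0 CPM in wild type. The part of any of these in the levels of the members was not tested.

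The profiles of miRNAs other than the members that were most like those of the 5p arms were found by the root mean square difference of centred log2 CPM over the 5 libraries. For miR-470-5p they were miR-375-3p (0.29), miR-92a-1-5p (0.32) and miR-3068-5p (0.33), beside a median of 1.04 over the other tested miRNAs. miR-375-3p stood at 4389, 4381 and 2666 CPM in Mtdh-/- 1, 2 and 3, against 3700 and 14710 CPM in wild type 1 and 2, and so shared the high value of wild type 2. For miR-463-5p they were miR-3068-5p (0.19), miR-5097 (0.27) and miR-26b-5p (0.30), and for miR-201-5p miR-301b-3p (0.21), miR-743b-5p (0.31) and miR-30d-3p (0.33). With members included, miR-463-5p ranked 2 among all tested miRNAs in likeness to miR-470-5p (0.31), and miR-201-5p ranked 17 (0.50).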

How the data were processed

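Small RNA of flash-frozen testes (mirVana kit, Illumina TruSeq libraries, per the labels' protocols) was sequenced. Novoalign 2.07.11 is named in the submitters' processing notes; the build, trimming and counting rules are unknown here. Raw tag counts were deposited, per the file headers, for all isoforms, the most abundant sequence and the exact mature sequence of each miRNA. The smallest count above 0 was 2, and blanks were read as 0. The authors also deposited these counts times 1 factor per library, rounded (a normalized score), and tables with a fold ratio of each Mtdh-/- library over the mean wild type, 10 added to each. A further 182 columns of per-library values were not used.

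Of 846 lines, 1 per mature miRNA was kept (736). A further 19, whose most abundant sequence was that of another line kept with at least as many counts, were left out with their counts (717). Each member had 1 line. The genotypes were compared with edgeR 4.0.16 (R 4.3.3; robust quasi-likelihood test on TMM-scaled counts after filterByExpr), adjusted over all tested miRNAs at a threshold of 0.05. Log2 ratios of arms (0.5 added to each count) were tested with limma 3.58.1 over all hairpins. Both were tried on simulated data. Shares have 95% Wilson intervals. The named miRNAs were all members, the 3 nearest profiles of each 5p arm and the 3 most abundant neighbours; other neighbours were named after their values were seen. The members and lists were chosen with earlier results of these data known. Alternatives were other scalings, no filter, DESeq2 1.42.0, other counts, a replicate block, limma on the authors' values, and each library left out. The miRNAs miR-126a and miR-486a or b of the marker lists were read under the sheet's names miR-126 and miR-486.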

Additional observations from a re-analysis of the deposited data

How the results depend on the processing

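No member passed a test under any alternative that gave a value. With 1 library left out, the genotype log2 fold change ranged from -1.46 to 0.52 for miR-470-5p, -0.86 to 0.80 for miR-201-5p, -0.71 to 0.63 for miR-463-5p, -1.13 to 0.95 for miR-463-3p and -2.65 to 3.12 for miR-470-3p. The arm ratio difference ranged from -3.80 to 2.78 for miR-470 and -1.73 to 1.70 for miR-463. The share of the most abundant sequence differed by -7.04 to -3.0 points for miR-470-5p, -7.38 to 4.59 for miR-201-5p and -1.80 to 12.1 for miR-463-5p. The median log2 fold change of all miRNAs was 0.19, and -0.13 with upper-quartile scaling. Scaling, DESeq2 and the count type kept the direction of the genotype difference. With the replicate number as a block, miR-201-5p was at 0.25, and the arm ratio at 0.37 for miR-463 and 0.66 for miR-470. The labels do not say that numbers pair libraries, and deviations of same-numbered libraries correlated at -0.44 and 0.10. The arm ratio of miR-463 was at 0.31 when only leading forms were counted and at -1.14 when only exact mature forms were. With the exact mature sequence, the share difference was 1.17 for miR-201-5p and -2.75 for miR-463-5p. Without the filter, edgeR called 5 of 512 miRNAs (3 higher, 2 lower) and no member, while DESeq2 called 0 of the same 512. The higher ones were miR-17-3p and, of the smooth muscle and stromal markers, miR-199a-5p and miR-214-3p. The lower ones were miR-191-3p and miR-883b-5p of the X-linked neighbours. For miR-883b-5p this rested on wild type 2, with 485 counts against 3, 2 and 5 in Mtdh-/- 1, 2 and 3 and 4 in wild type 1. A block by the side of the first principal component, added after the data were seen, put miR-470-3p at 0.44. Some alternatives left a scarce member below the filter and gave no value for it, among them the arm ratio of miR-470 from leading or exact forms and any test of miR-201-3p. The causes were not tested. Counts under 70 limit the 3p arms.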
